A study of Saccharomyces cerevisiae with 12 samples.

Results

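Peroxisome biogenesis genes of budding yeast (Saccharomyces cerevisiae) were followed in 4 strains growing on glucose. They were chosen by name: every probe set of the array whose annotated symbol is PEX followed by a number, and those of INP1, INP2, DJP1 and ANT1. This gave 29 genes, each with 1 probe set, of 5448 genes tested from 5715 probe sets. The rule uses symbols and no measured value, but it was set with earlier results of these data known. Messenger RNA was measured on 12 Affymetrix Yeast Genome 2.0 arrays, each with RNA of 1 culture and 3 for each strain. The bmh mutant (YLL1087) carries bmh1-170ts, a temperature-sensitive allele of BMH1, and bmh2∆. BMH1 and BMH2 encode the yeast 14-3-3 proteins, which bind phosphorylated partners. The hdac mutant (CTY-TY44) is hda1∆ rpd3∆ and so lacks the catalytic subunits of the Hda1 and Rpd3 histone deacetylase complexes. The combined mutant (KBY3) is bmh1-170ts bmh2∆ hda1∆ rpd3∆, and the wild type is W303-1A, the background of all 4 strains. All cultures grew exponentially at 30 °C in YP medium with 5% glucose, so the effect of the temperature-sensitive allele was measured at that temperature alone. Each genotype is 1 strain, so other differences between the strains cannot be told apart from the named mutations.

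Peroxisomes are organelles bounded by a single membrane that house fatty acid beta-oxidation and, in yeast, parts of the glyoxylate cycle. Their building machinery is made of peroxins, the products of the PEX genes: receptors carry enzymes from the cytosol to a docking complex in the membrane, ubiquitin and an ATPase recycle the receptors, and further peroxins insert membrane proteins and set the number and size of the organelles. In yeast, peroxisomes are few and small on glucose and multiply on oleate, when the activators Oaf1, Pip2 and Adr1 turn on genes of fatty acid use. The design sets 14-3-3 mutations and deacetylase deletions, each alone and joined, against the wild type under glucose repression.

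Values are log2 signals, so a difference of 1 is a 2-fold change. They are given as mean ± SD over 3 arrays or as a difference ± standard error (SE). A gene was called changed when its limma p-value, adjusted over all 5448 genes by the Benjamini-Hochberg method, was under 0.05, and "rose" and "fell" are used of called genes. Array medians lay between 8.81 and 8.85. BMH2 averaged 4.03 in bmh and 3.80 in combined cultures, against 11.64 in the wild type. HDA1 averaged 3.82 in hdac and 3.78 in combined cultures, against 8.22 in the wild type, and RPD3 3.86 and 3.89, against 9.61. BMH1, which is mutated but present, differed from the wild type by 0.05, −0.10 and −0.18 in the bmh, hdac and combined mutants. The deleted genes lay between 3.68 and 4.13 on arrays of strains that lack them, and their highest value, 4.13, was taken as background. CTY-TY44 and KBY3 are exchanged between the source names and the genotype labels, and these low signals follow the genotypes. The lowest strain mean of any of the 29 genes was 4.75, so none was at background. The wild-type arrays were more spread than the others, with a median SD over the 29 genes of 0.0669 among bmh, 0.0569 among hdac, 0.0755 among combined and 0.141 among wild-type arrays. Mating-type transcripts differed as well. The median of 7 a-cell markers was 10.73 to 10.85 on the bmh arrays, 5.85 to 6.13 on the hdac arrays, 8.99 to 9.10 on the combined arrays and 10.74 to 11.10 on the wild-type arrays. That of 4 alpha-cell markers was 5.10 to 5.49 on the bmh arrays, 9.70 to 9.73 on the hdac arrays, 5.17 to 5.27 on the combined arrays and 5.15 to 5.30 on the wild-type arrays. MF(ALPHA)1, the alpha-factor gene, averaged 11.64 in the hdac mutant, against 4.09, 3.81 and 4.02 in the bmh mutant, the combined mutant and the wild type, which is at background. The hdac strain thus stood apart in mating-type transcripts, while in the combined mutant a-cell markers were lower than in the wild type. Of the 4 alpha-cell markers, 1 rose in the combined mutant (SAG1, the alpha-agglutinin gene, by 1.56) and 1 fell, with a median change of −0.01. In the bmh mutant 3 of the 7 a-cell markers fell, the lowest change being −0.59, and none of the alpha-cell markers was called. The part of mating type in the values below was not tested.

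In the strains without the deacetylases most peroxisome biogenesis genes changed, in both directions, as did most genes of the array. In the hdac mutant 15 of the 29 genes rose and 9 fell relative to the wild type, and in the combined mutant 16 rose and 9 fell. In the bmh mutant 6 rose and 2 fell. Rises made up 20.7% and falls 6.9% of the 29 genes there, where 14.8% of all genes rose and 17.2% fell. As a share these were 82.8, 86.2 and 27.6% of the genes, against a background over all genes of 71.4% called in the hdac mutant, 75.7% in the combined mutant and 32% in the bmh mutant. Rises alone made up 51.7% of the 29 genes in the hdac mutant, where 29.8% of all genes rose, and 55.2% in the combined mutant, where 30.4% of all genes rose. Falls made up 31% of the 29 genes in both, where 41.6% and 45.2% of all genes fell. The median change of the 29 genes was 0.22 in the hdac mutant, 0.24 in the combined mutant and −0.01 in the bmh mutant. Over all genes the median was −0.09, −0.13 and −0.01 in the same order. The arrays of the mutant and the wild type did not overlap for 21 of the 29 genes in the hdac mutant, 24 in the combined mutant and 10 in the bmh mutant, where 71.3, 75.3 and 41.2% of all genes did not overlap. The 3 comparisons share the wild-type arrays. Without wild-type array 1 the bmh counts were 9 rises and 5 falls.

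**Figure D1:**
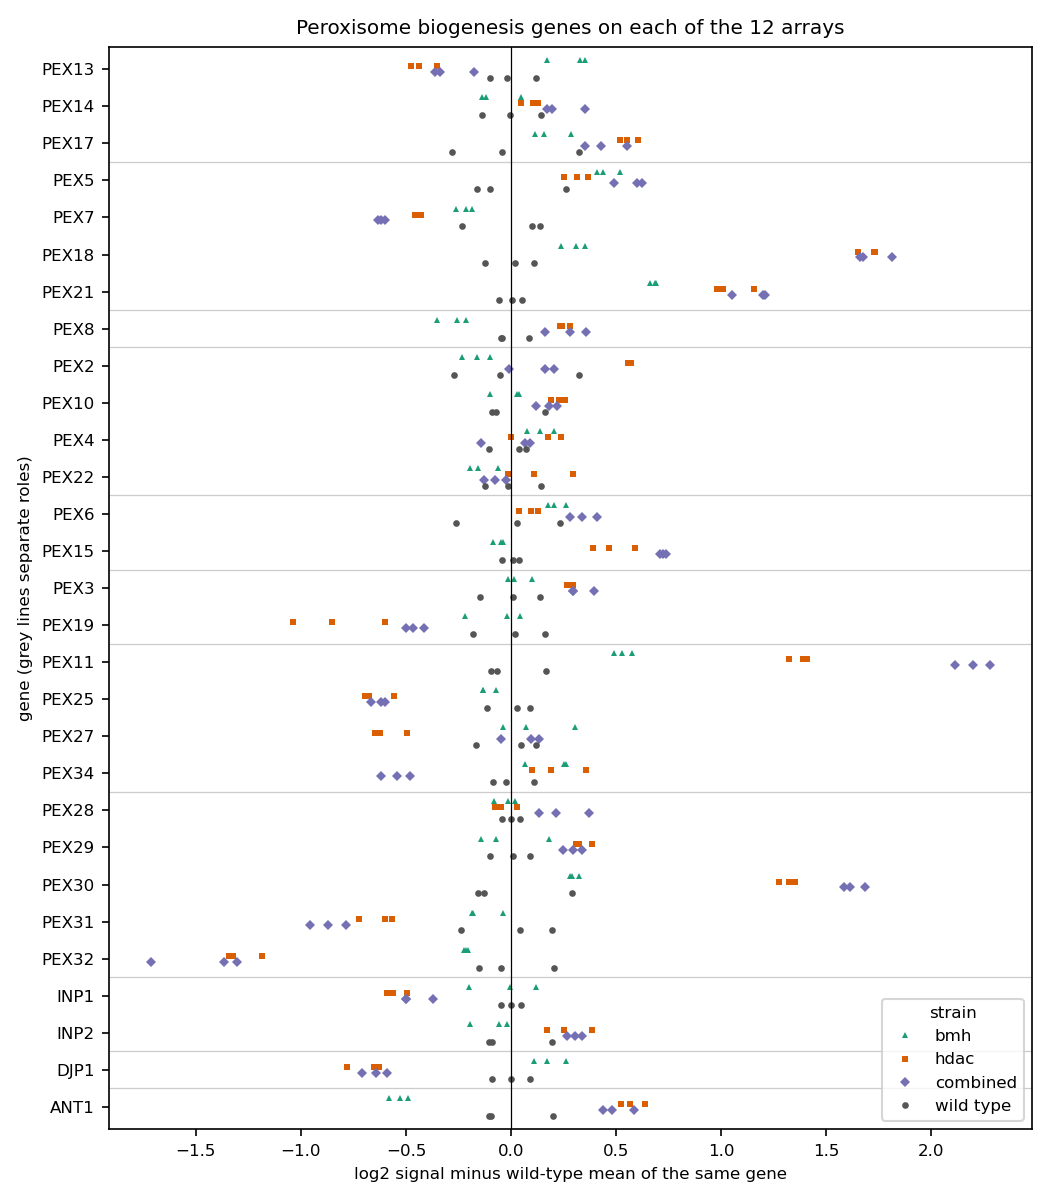
Log2 signal of each of the 29 genes on each array minus that gene's wild-type mean (x axis), with genes by role down the page and 4 strains as marker shapes. PEX11, PEX18, PEX21 and PEX30 lie far right in the hdac and combined mutants and PEX32 far left, while most bmh points lie within 0.5 of the wild-type mean.

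The largest rise was in PEX11 (YOL147C), a membrane protein that elongates and divides peroxisomes and sets their number. PEX11 measured 10.97, 10.93 and 11.02 on the bmh arrays, 11.85, 11.76 and 11.83 on the hdac arrays, 12.55, 12.64 and 12.72 on the combined arrays, and 10.61, 10.37 and 10.34 on the wild-type arrays. The 4 strains did not overlap, and their order was combined, hdac, bmh and wild type from high to low. Relative to the wild type PEX11 rose by 2.20 ± 0.075 (4.58-fold, adjusted p = 1.13e-10) in the combined mutant, by 1.37 ± 0.075 (2.59-fold, adjusted p = 1.14e-08) in the hdac mutant and by 0.53 ± 0.075 (1.45-fold, adjusted p = 2.12e-04) in the bmh mutant. In the combined mutant 189 of the 5448 genes had a larger rise. PEX11 was also higher in the combined mutant than in the hdac mutant, by 0.82 ± 0.075 (adjusted p = 4.31e-06), and than in the bmh mutant, by 1.67 ± 0.075 (adjusted p = 1.75e-09).

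Other members of the proliferation group did not share this pattern. PEX25 (YPL112C), a PEX11-related protein that takes part in the regrowth of peroxisomes, measured 9.64, 9.58 and 9.58 on the bmh arrays, 9.02, 9.04 and 9.15 on the hdac arrays, 9.04, 9.11 and 9.09 on the combined arrays, and 9.59, 9.74 and 9.80 on the wild-type arrays. It fell by 0.64 ± 0.064 in the hdac mutant (adjusted p = 2.41e-06) and by 0.63 ± 0.064 in the combined mutant (adjusted p = 2.2e-06), and differed by −0.11 in the bmh mutant, which did not pass and passed without wild-type array 1 (−0.17, adjusted p = 0.0288). PEX25 of both strains without the deacetylases lay below that of both strains with them on every array. PEX27 (YOR193W), another PEX11-related protein, measured 7.29, 7.06 and 6.95 on the bmh arrays, 6.34, 6.49 and 6.36 on the hdac arrays, 7.08, 6.94 and 7.12 on the combined arrays, and 7.03, 6.82 and 7.10 on the wild-type arrays. PEX27 was low on the hdac arrays alone. The fall in the hdac mutant was 0.59 ± 0.098 (adjusted p = 1.72e-04), and the combined mutant stood 0.65 ± 0.098 above the hdac mutant (adjusted p = 2.92e-04) and at 0.06 from the wild type, which did not pass.

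PEX34 (YCL056C), which acts with the PEX11 family in controlling peroxisome number, was low in the combined mutant alone. It measured 9.35, 9.36 and 9.17 on the bmh arrays, 9.29, 9.46 and 9.20 on the hdac arrays, 8.48, 8.56 and 8.62 on the combined arrays, and 9.21, 9.07 and 9.01 on the wild-type arrays. No combined array reached any array of another strain. PEX34 fell by 0.55 ± 0.083 in the combined mutant (adjusted p = 6.72e-05) and rose by 0.22 ± 0.083 in the hdac mutant (adjusted p = 0.0336), a call that ended without hdac array 1 or 2 or wild-type array 2 or 3 (adjusted p up to 0.148). In the bmh mutant it differed by 0.19, which did not pass and passed without wild-type array 1 (0.25, adjusted p = 0.0271). It was the 1 gene of the 29 called in opposite directions in the hdac and combined mutants.

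**Figure D2:**
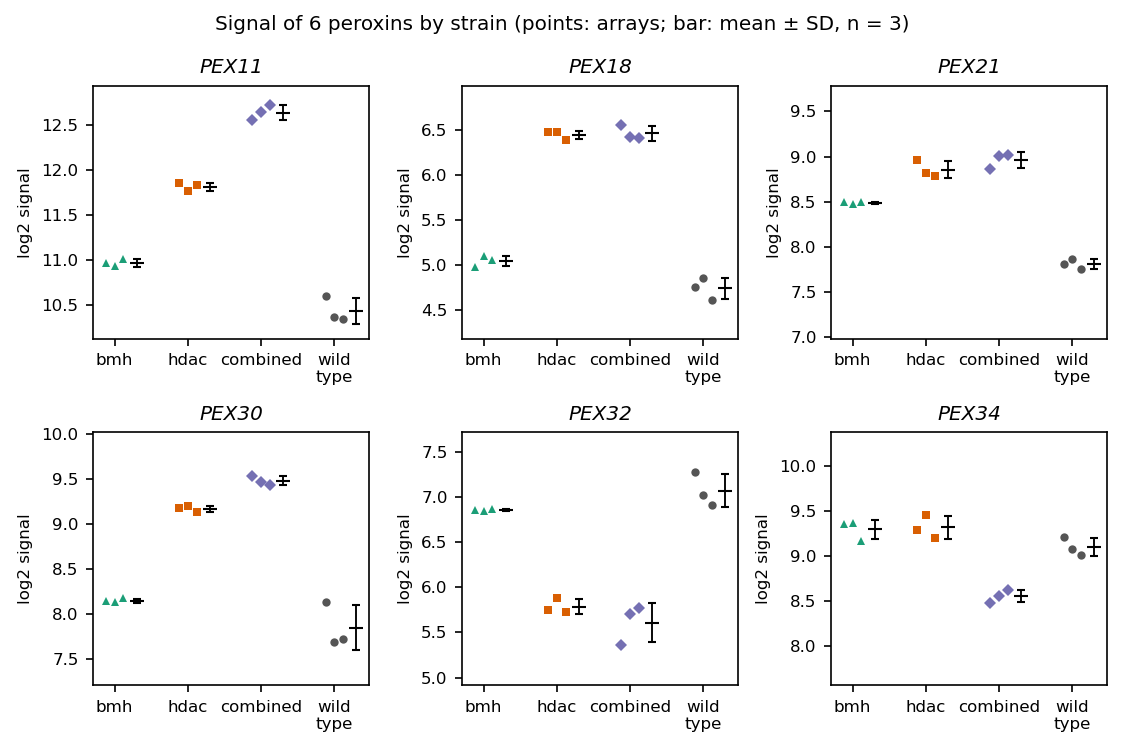
Log2 signal (y axis, the same span of 2.8 in each panel) of PEX11, PEX18, PEX21, PEX30, PEX32 and PEX34 in the bmh, hdac and combined mutants and the wild type. Points are arrays and bars are mean ± SD over 3 arrays. PEX11 differs between all 4 strains, PEX18, PEX30 and PEX32 divide the strains by the hda1∆ rpd3∆ deletions, and PEX34 is low in the combined mutant.

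Of the cargo receptors and co-receptors, the co-receptors rose most in the strains without the deacetylases. Pex5 and Pex7 recognise the type 1 and type 2 peroxisomal targeting signals of matrix enzymes, and Pex18 and Pex21 are partly redundant helpers of Pex7. PEX18 (YHR160C) measured 4.99, 5.10 and 5.06 on the bmh arrays, 6.48, 6.47 and 6.40 on the hdac arrays, 6.56, 6.42 and 6.41 on the combined arrays, and 4.76, 4.86 and 4.62 on the wild-type arrays. Its wild-type level was the lowest strain mean of the 29 genes. PEX18 rose by 1.72 ± 0.070 (3.29-fold, adjusted p = 5.59e-10) in the combined mutant, by 1.70 ± 0.070 (3.26-fold, adjusted p = 9.52e-10) in the hdac mutant and by 0.30 ± 0.070 (1.23-fold, adjusted p = 0.00653) in the bmh mutant. The combined and hdac mutants overlapped and differed by 0.01 ± 0.070, which did not pass (adjusted p = 0.899).

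PEX21 (YGR239C) measured 8.49, 8.47 and 8.50 on the bmh arrays, 8.96, 8.82 and 8.79 on the hdac arrays, 8.86, 9.01 and 9.01 on the combined arrays, and 7.81, 7.86 and 7.75 on the wild-type arrays. All 9 mutant arrays lay above the wild type. PEX21 rose by 0.68 ± 0.065 (1.60-fold, adjusted p = 8.71e-06) in the bmh mutant, the largest rise there among the 29 genes, by 1.05 ± 0.065 (2.07-fold, adjusted p = 3.48e-08) in the hdac mutant and by 1.15 ± 0.065 (2.22-fold, adjusted p = 9.46e-09) in the combined mutant. In the strains without the deacetylases the receptors themselves moved less, and in different directions. PEX5 (YDR244W) measured 8.30, 8.22 and 8.19 on the bmh arrays, 8.03, 8.15 and 8.09 on the hdac arrays, 8.40, 8.38 and 8.27 on the combined arrays, and 7.68, 7.62 and 8.04 on the wild-type arrays, of which array 3 lay beside the hdac arrays. PEX5 rose by 0.45 ± 0.095 in the bmh mutant (adjusted p = 0.00337), by 0.31 ± 0.095 in the hdac mutant (adjusted p = 0.0112), and stood 0.57 ± 0.095 above the wild type in the combined mutant (adjusted p = 1.54e-04). Leaving out wild-type array 2 ended its call in the hdac mutant (adjusted p = 0.0522). PEX7 (YDR142C) fell by 0.44 ± 0.083 in the hdac mutant (adjusted p = 4.26e-04) and by 0.62 ± 0.083 in the combined mutant (adjusted p = 2.45e-05), and its difference of −0.22 in the bmh mutant did not pass (adjusted p = 0.0612) and passed without wild-type array 1 (−0.34, adjusted p = 1.35e-04).

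The group that works at contacts with the endoplasmic reticulum (ER) and limits peroxisome number or size split into a strong rise and a strong fall. PEX30 (YLR324W), an ER membrane-shaping protein at sites where peroxisomes form, measured 8.14, 8.13 and 8.17 on the bmh arrays, 9.17, 9.20 and 9.13 on the hdac arrays, 9.53, 9.46 and 9.43 on the combined arrays, and 8.14, 7.69 and 7.72 on the wild-type arrays. Wild-type array 1 lay at the level of the bmh arrays. PEX30 rose by 1.63 ± 0.098 (3.09-fold, adjusted p = 1.79e-08) in the combined mutant, by 1.32 ± 0.098 (2.49-fold, adjusted p = 1.75e-07) in the hdac mutant and by 0.30 ± 0.098 (1.23-fold, adjusted p = 0.0361) in the bmh mutant. The bmh call ended without any bmh array, hdac array 1, combined array 2 or wild-type array 2 or 3 (adjusted p up to 0.127), and without wild-type array 1 the rises were 1.77, 1.46 and 0.44 in the combined, hdac and bmh mutants.

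PEX31 and PEX32, whose proteins are related to Pex30, fell. PEX32 (YBR168W) measured 6.86, 6.85 and 6.87 on the bmh arrays, 5.75, 5.89 and 5.73 on the hdac arrays, 5.36, 5.70 and 5.77 on the combined arrays, and 7.28, 7.02 and 6.92 on the wild-type arrays. PEX32 fell by 1.46 ± 0.11 (2.75-fold, adjusted p = 1.4e-07) in the combined mutant and by 1.28 ± 0.11 (2.44-fold, adjusted p = 6.03e-07) in the hdac mutant, the largest falls among the 29 genes, and 105 and 120 of all genes fell further. Both strains without the deacetylases lay below both strains with them. PEX31 (YGR004W) measured 8.81, 8.95 and 8.80 on the bmh arrays, 8.39, 8.26 and 8.42 on the hdac arrays, 8.03, 8.20 and 8.12 on the combined arrays, and 8.75, 9.18 and 9.03 on the wild-type arrays. The fall of PEX31 was 0.87 ± 0.099 (1.83-fold, adjusted p = 5.66e-06) in the combined mutant and 0.63 ± 0.099 (1.55-fold, adjusted p = 1.07e-04) in the hdac mutant. Its difference of −0.13 in the bmh mutant did not pass (adjusted p = 0.335) and passed without wild-type array 1 (−0.25, adjusted p = 0.0174). PEX28 (YHR150W) and PEX29 (YDR479C), a related pair, moved little. PEX28 measured 6.81, 6.87 and 6.91 on the bmh arrays, 6.92, 6.84 and 6.81 on the hdac arrays, 7.02, 7.10 and 7.26 on the combined arrays, and 6.85, 6.89 and 6.93 on the wild-type arrays. It rose by 0.24 ± 0.067 in the combined mutant (adjusted p = 0.0057), a call that quantile normalization ended (0.12, adjusted p = 0.123). PEX29 measured 7.49, 7.56 and 7.81 on the bmh arrays, 7.94, 8.01 and 7.95 on the hdac arrays, 7.96, 7.87 and 7.92 on the combined arrays, and 7.64, 7.53 and 7.72 on the wild-type arrays. It rose by 0.34 ± 0.082 in the hdac mutant (adjusted p = 0.00248) and by 0.29 ± 0.082 in the combined mutant (adjusted p = 0.00606).

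Loaded receptors meet the docking complex at the membrane. There, PEX13 (YLR191W), whose protein receives loaded receptors, measured 8.07, 8.05 and 7.89 on the bmh arrays, 7.37, 7.24 and 7.28 on the hdac arrays, 7.38, 7.35 and 7.54 on the combined arrays, and 7.61, 7.83 and 7.70 on the wild-type arrays. PEX13 rose by 0.28 ± 0.078 in the bmh mutant (adjusted p = 0.0151) and fell by 0.42 ± 0.078 in the hdac mutant (adjusted p = 3.79e-04) and by 0.29 ± 0.078 in the combined mutant (adjusted p = 0.00445), so it moved one way with the bmh mutations and the other with the deletions. The bmh call of PEX13 ended without bmh array 1 or 2 (adjusted p up to 0.0632). PEX14 (YGL153W), its partner in the docking complex and the pore, rose by 0.24 in the combined mutant, a call that ended without combined array 2 or wild-type array 2 (adjusted p up to 0.088), and stood at 0.09 and −0.07 in the hdac and bmh mutants. PEX17 (YNL214W), a docking subunit, rose by 0.56 in the hdac mutant and 0.44 in combined cells, a call in combined cells that quantile normalization ended (0.24, adjusted p = 0.083). Its difference of 0.19 in the bmh mutant did not pass (adjusted p = 0.279) and passed without wild-type array 1 (0.35, adjusted p = 0.00456). In the wild type it ranged from 5.98 to 6.59, the widest spread of the 29 genes in that strain.

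Receptor recycling follows import. PEX4 (YGR133W), the ubiquitin-conjugating enzyme, and PEX22 (YAL055W), its membrane anchor, were the only genes of the 29 called in none of the 3 comparisons with the wild type, with differences between −0.14 and 0.14. Without wild-type array 1, PEX22 was called in the hdac mutant (adjusted p = 0.0418). PEX10 (YDR265W), a RING-type ubiquitin ligase, rose by 0.23 in the hdac mutant, a call that ended without wild-type array 2 or 3 (adjusted p up to 0.0605), and by 0.17 in the combined mutant, a call that ended without any 1 array other than bmh array 1 and wild-type array 1 (adjusted p up to 0.163). PEX2 (YJL210W), another ligase of this type, rose in the hdac mutant by 0.56 ± 0.12 (adjusted p = 0.00108) and was 0.44 ± 0.12 lower in the combined than in the hdac mutant (adjusted p = 0.0122). PEX15 (YOL044W), which anchors the receptor-extracting ATPase in the membrane, rose by 0.72 ± 0.058 in the combined mutant (adjusted p = 2.6e-07) and by 0.48 ± 0.058 in the hdac mutant (adjusted p = 1.25e-05). PEX8 (YGR077C), which links the docking and ligase complexes inside the organelle, fell by 0.27 in the bmh mutant and rose by 0.25 in hdac cells and 0.27 in combined cells.

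PEX6 (YNL329C), an ATPase that pulls receptors back to the cytosol, lies next to RPD3 (YNL330C) in the RefSeq gene table (assembly R64), which is deleted in the hdac and combined mutants, and was the only member next to a mutated gene. It measured 7.92, 8.01 and 7.95 on the bmh arrays, 7.78, 7.84 and 7.87 on the hdac arrays, 8.03, 8.15 and 8.08 on the combined arrays, and 7.98, 7.77 and 7.48 on the wild-type arrays. PEX6 rose by 0.34 ± 0.10 in the combined mutant (adjusted p = 0.00773), and its difference of 0.09 ± 0.10 in the hdac mutant, which carries the same deletion, did not pass (adjusted p = 0.455). The wild-type arrays overlapped the bmh and hdac arrays, and without wild-type array 1 the PEX6 differences were 0.33 (adjusted p = 0.00436) in the bmh and 0.20 (adjusted p = 0.03) in the hdac mutant. Without wild-type array 3 the PEX6 rise in the combined mutant was 0.21. Among the genes for insertion of membrane proteins, PEX3 (YDR329C), the membrane docking factor, rose by 0.28 in hdac cells and 0.33 in combined cells. PEX19 (YDL065C), the chaperone that brings new membrane proteins to Pex3, measured 8.29, 8.03 and 8.23 on the bmh arrays, 7.21, 7.65 and 7.40 on the hdac arrays, 7.84, 7.75 and 7.78 on the combined arrays, and 8.41, 8.07 and 8.27 on the wild-type arrays. PEX19 fell by 0.83 ± 0.11 in the hdac mutant (1.78-fold, adjusted p = 3.48e-05) and by 0.46 ± 0.11 in the combined mutant (adjusted p = 0.00284). The gap of 0.37 between the combined and hdac mutants was called (adjusted p = 0.0233) and ended without hdac or combined array 1 or 3 (adjusted p up to 0.103).

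The remaining members are the ATP carrier, the genes of retention and inheritance, and a chaperone. ANT1 (YPR128C), the carrier that brings ATP into peroxisomes for fatty acid activation, measured 9.25, 9.30 and 9.34 on the bmh arrays, 10.40, 10.36 and 10.47 on the hdac arrays, 10.27, 10.31 and 10.42 on the combined arrays, and 10.03, 9.74 and 9.73 on the wild-type arrays. The wild type lay between the bmh mutant and the strains without the deacetylases on every array. ANT1 fell by 0.53 ± 0.082 in the bmh mutant (adjusted p = 4.04e-04), the largest fall there among the 29 genes, and rose by 0.58 ± 0.082 in the hdac mutant (adjusted p = 4.63e-05) and by 0.50 ± 0.082 in the combined mutant (adjusted p = 1.23e-04). INP1 (YMR204C), which holds peroxisomes in the mother cell, and INP2 (YMR163C), which ties them to the myosin that carries them to the bud, changed in opposite directions. INP1 fell by 0.55 ± 0.078 in hdac cells and 0.46 ± 0.078 in combined cells (adjusted p = 4.47e-05 and 1.72e-04), while INP2 rose by 0.27 ± 0.087 in the hdac mutant (adjusted p = 0.015), a call that ended without hdac array 2 or wild-type array 2 or 3, and by 0.30 ± 0.087 in the combined mutant (adjusted p = 0.00721). In the bmh mutant INP1 and INP2 stood at −0.03 and −0.09 and did not pass. DJP1 (YIR004W), a cytosolic Hsp40 chaperone needed for efficient import, fell by 0.69 ± 0.069 in the hdac mutant (adjusted p = 2.41e-06) and by 0.65 ± 0.069 in the combined mutant (adjusted p = 3.09e-06), and its difference of 0.18 in the bmh mutant did not pass (adjusted p = 0.0627) and passed without wild-type array 3 (0.23, adjusted p = 0.0381) and with quantile normalization (0.19, adjusted p = 0.0397).

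**Figure D3:**
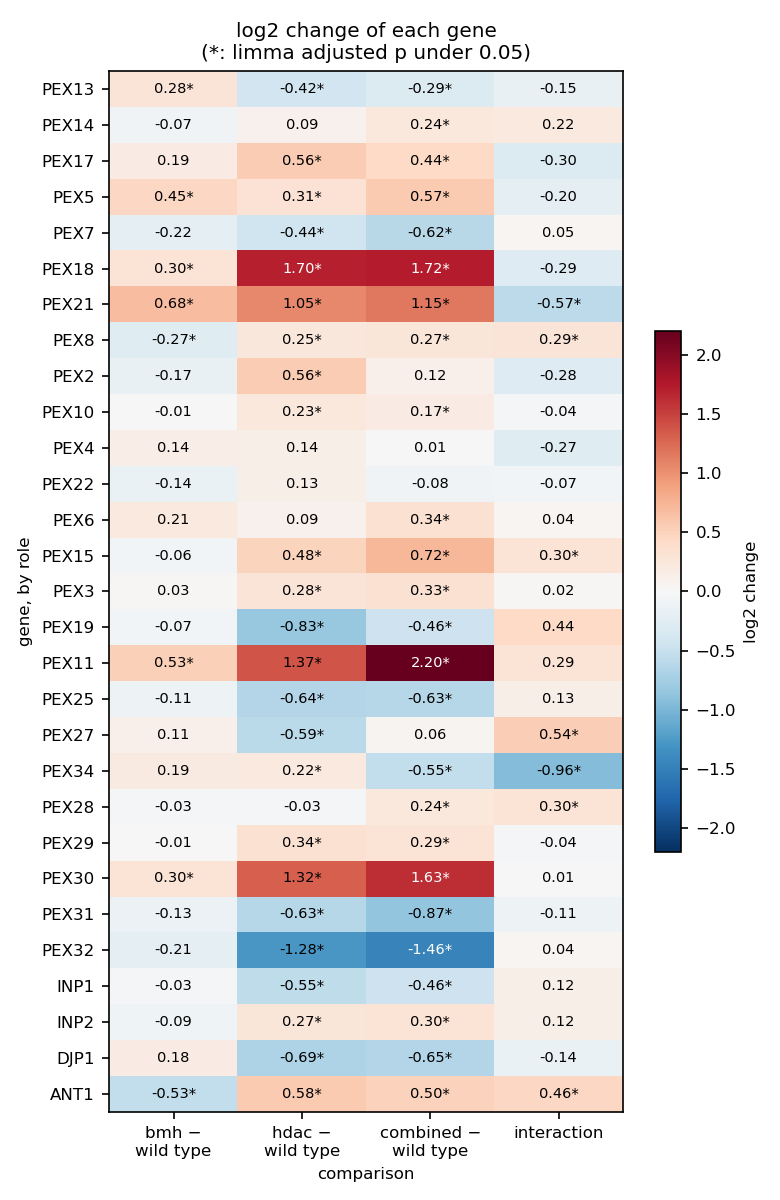
Log2 change of each of the 29 genes (rows, by role) in the bmh, hdac and combined mutants against the wild type and the interaction (columns), with an asterisk at limma adjusted p under 0.05. The hdac and combined columns share sign and call for 21 genes, and PEX34 is called in opposite directions.

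Set side by side, the hdac and combined mutants gave the same call in the same direction for 21 of the 29 genes, where 61.3% of all genes did so. PEX2 and PEX27 were called in the hdac mutant alone, PEX14, PEX6 and PEX28 in the combined mutant alone, and PEX4 and PEX22 in neither. Without wild-type array 1, PEX2 was called in the combined mutant too (0.28, adjusted p = 0.00517). These comparisons share their wild-type arrays, and a call in 1 of them alone does not show a difference between them. Called in all 3 mutants were 8 genes, of which PEX5, PEX18, PEX21, PEX11 and PEX30 rose in each and PEX13, PEX8 and ANT1 changed direction between the bmh mutant and the strains without the deacetylases. At least 1 of the 3 comparisons was called for 27 of the 29 genes, against 87.4% of all genes. All 3 comparisons were called for 22% of all genes, and in the same direction for 15.9%.

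The deletions were also examined within the bmh background, by comparing the combined mutant with the bmh mutant. Here 14 of the 29 genes rose and 9 fell, where 30.1% of all genes rose and 45% fell, and 79.3% were called against 75% of all genes, with a median of 0.18 where that of all genes was −0.12. The arrays did not overlap for 25 of the 29 genes, against 82.9% of all genes. PEX11 (1.67), PEX18 (1.42), PEX30 (1.33) and ANT1 (1.03) rose at least 2-fold, and PEX32 (−1.25) fell at least 2-fold. ANT1 had 10.27 to 10.42 on the combined arrays and 9.25 to 9.34 on the bmh arrays, its widest gap in any pair of strains compared. Same-numbered combined and bmh arrays deviated together, and with these arrays fitted as pairs 16 genes rose and 10 fell, where 32.6% of all genes rose and 48.2% fell, PEX17 (0.26, adjusted p = 0.00287), PEX6 (0.13, adjusted p = 0.0367) and PEX4 (−0.13, adjusted p = 0.0479) being added. With the replicate number as a block over all 12 arrays, PEX2 (adjusted p = 0.0672) and PEX10 (adjusted p = 0.057) did not pass and PEX17 did (adjusted p = 0.0276). The PEX2 rise of 0.28 ended without any bmh or hdac array, combined array 2 or 3, or wild-type array 2 (adjusted p up to 0.136) and the PEX10 rise of 0.18 without bmh array 1 or 3, hdac array 3 or combined array 1 or 2 (adjusted p up to 0.143).

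Fewer genes differed between the combined and the hdac mutant, whose genotypes differ by the bmh mutations within the background without deacetylases. These strains also differed in all 7 a-cell and all 4 alpha-cell markers, and the part of mating type was not tested. PEX11 (0.82), PEX27 (0.65), PEX19 (0.37), PEX30 (0.31), PEX28 (0.27) and PEX15 (0.24) rose, and PEX34 (−0.76) and PEX2 (−0.44) fell, which is 27.6% of the 29 genes against 36.4% of all genes. Rises made up 20.7% and falls 6.9% of the 29 genes, where 17.5% of all genes rose and 18.9% of all genes fell. The arrays did not overlap for 15 of the 29, against 58.6% of all genes. The median was 0.03, and −0.02 over all genes. The PEX30 call ended without any of the 3 hdac arrays or combined array 1 or 2 (adjusted p up to 0.083) and the PEX2 call without combined array 1 (adjusted p = 0.053), which left 1 fall. Without wild-type array 1, which enters here through the pooled spread, 8 genes rose and 5 fell. PEX18, PEX21 and PEX25 differed by 0.01 ± 0.070, 0.11 ± 0.065 and 0.01 ± 0.064 and did not pass.

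Whether the combined change differed from the sum of the single changes was tested by the interaction, the change in the combined mutant minus the sum of the bmh and hdac changes. The interaction was called for all 7 a-cell and all 4 alpha-cell markers, and the part of mating type in it was not tested. Among the 29 genes it was called for 7, 24.1% against 23.7% of all genes, with 5 above the sum and 2 below. The largest was PEX34 at −0.96 ± 0.12 (adjusted p = 9.61e-05): the single changes sum to 0.41 and the combined change was −0.55. PEX21 reached 1.15 where the single changes sum to 1.73 (interaction −0.57 ± 0.091, adjusted p = 7.71e-04), and PEX27 stood at 0.06 where they sum to −0.48 (0.54 ± 0.14, adjusted p = 0.0145). ANT1 (0.46 ± 0.12, adjusted p = 0.0127), PEX15 (0.30), PEX28 (0.30) and PEX8 (0.29) lay above the sum. The PEX28 call ended without array 1 or 2 of the bmh mutant or array 2 or 3 of any other strain (adjusted p up to 0.0922), the PEX8 call without bmh array 1 or 2, any hdac array, combined array 2 or 3, or wild-type array 2 (adjusted p up to 0.105), and the PEX15 call without hdac array 2 (adjusted p = 0.051). Leaving out bmh array 1 or 2, hdac array 2 or 3, or combined array 2 or 3 gave 3 calls above the sum, and leaving out wild-type array 1 gave 5 below it. Of the 5 genes with the largest combined changes, PEX21 passed, as given, and the others did not. PEX11 had 2.20 against a sum of 1.90 (interaction 0.29 ± 0.11, adjusted p = 0.0661) and passed with a variance trend in the fit (adjusted p = 0.0453), with array weights (0.0175) and without wild-type array 3. PEX18 had 1.72 against 2.00 (interaction −0.29 ± 0.099, adjusted p = 0.0564) and passed with quantile normalization (adjusted p = 0.0453), median centring (0.0418) and array weights (0.0194), and without combined array 1 or wild-type array 1 or 2. PEX30 had 1.63 against 1.61, and PEX32 had −1.46 against −1.50. For 16 of the 29 genes the combined change lay within 0.25 of the sum.

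**Figure D4:**
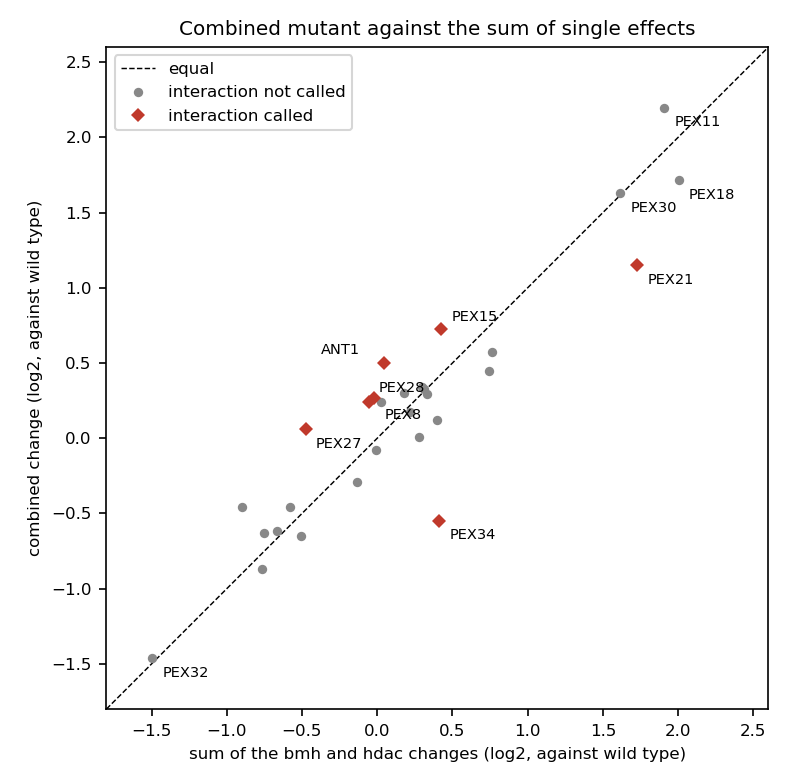
Log2 change of each of the 29 genes in the combined mutant (y axis) against the sum of its changes in the bmh and hdac mutants (x axis), all relative to the wild type, whose arrays enter both axes. Points on the dashed line are equal to the sum, and red diamonds mark the 7 genes whose interaction was called, of which PEX34 and PEX21 lie below the line.

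Related peroxins were set against each other within each array, which shows unequal change and not which partner is more abundant. PEX18 rose more than PEX21 in the strains without deacetylases and less in the bmh mutant: relative to the wild type, the PEX18 minus PEX21 difference was −0.38 ± 0.068 (SD, n = 3) in the bmh mutant, 0.66 ± 0.072 on hdac arrays and 0.56 ± 0.17 on combined arrays, with a wild-type SD of 0.062. No mutant array overlapped the wild type for this pair. PEX30 minus PEX31 moved furthest, by 1.95 ± 0.12 on hdac arrays and 2.50 ± 0.13 on combined arrays, where no array overlapped the wild type (SD 0.46), and by 0.43 ± 0.10 in the bmh mutant, which overlapped wild-type array 1. PEX25 minus PEX27 was −0.69 ± 0.12 on combined arrays, −0.05 ± 0.12 on hdac arrays and −0.23 ± 0.14 on bmh arrays (wild-type SD 0.18). PEX28 minus PEX29 was −0.37 ± 0.079 in the hdac mutant, −0.05 ± 0.14 in the combined mutant and −0.02 ± 0.13 in the bmh mutant (wild-type SD 0.085). With 3 arrays against 3 the exact two-sided permutation test cannot go below p = 0.10. That value was reached for 7 of the 12 differences, and adjusted over the 12 none was below 0.17.

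**Figure D5:**
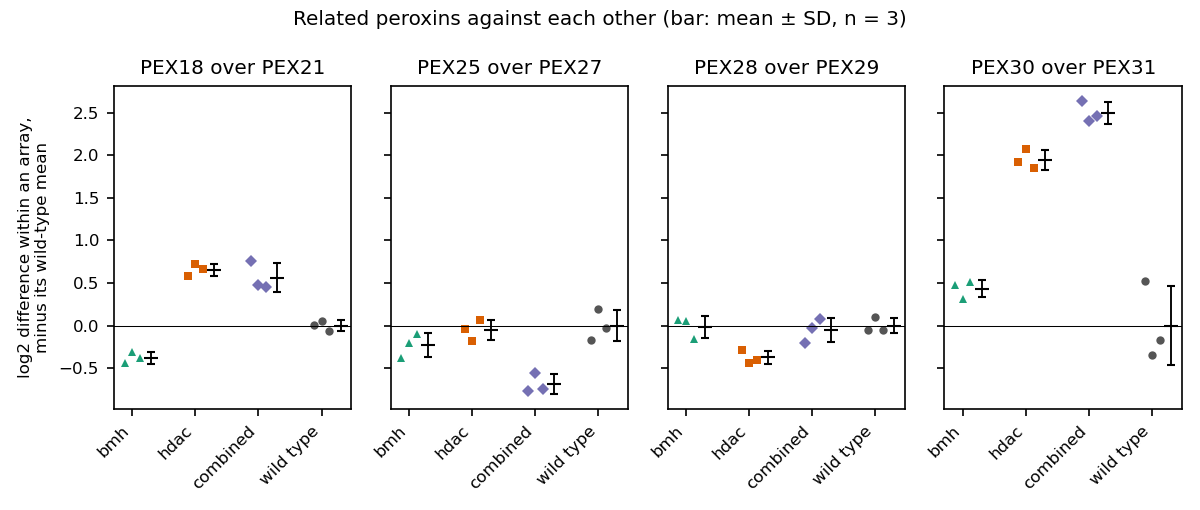
Difference in log2 signal between 2 related peroxins on the same array, minus its wild-type mean (y axis), for 4 pairs in the bmh, hdac and combined mutants and the wild type. Points are arrays and bars are mean ± SD over 3 arrays. PEX30 over PEX31 reaches 2.50 in the combined mutant, and PEX18 over PEX21 lies below 0 in the bmh mutant and above 0 in both strains without the deacetylases.

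Profiles over the 12 arrays ranged from nearly alike to nearly opposite. The median Pearson correlation of the 406 pairs was 0.06, with 22 pairs above 0.9 and 27 below −0.9. PEX18 with PEX30 (0.97) and PEX11 with PEX30 (0.97) were the most alike, and PEX18 with PEX25 (−0.99) and PEX30 with PEX31 (−0.98) the most opposed. After the strain means were removed the median was 0.07. These correlations describe 12 arrays of 4 strains and carry no test.

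The enzymes and regulators that peroxisomes serve give the setting for these values. Of 18 genes for peroxisomal enzymes and lipid importers, 15 rose and 2 fell in the combined mutant, 12 and 3 in the hdac mutant, and 4 and 6 in the bmh mutant, with medians of 1.27, 0.83 and −0.11. Of all genes 30.4, 29.8 and 14.8% rose and 45.2, 41.6 and 17.2% fell in the same order. The lowest change among the 18 genes was −1.20 in the combined, −0.93 in the hdac and −1.14 in the bmh mutant. The enzyme genes named next are among those that rose. The thiolase POT1 rose by 5.33 in the combined and 4.17 in the hdac mutant, the carnitine acetyltransferase CAT2 by 2.89 and 1.95, and the reductase SPS19 by 2.54 and 1.42. POX1, the acyl-CoA oxidase, was at background in the wild type and rose at least 6.22-fold in the combined mutant. The interaction was called above the sum for 11 of these 18 genes and below it for 1, where 12.3% of all genes lay above and 11.3% below. Of the regulators, ADR1 rose by 2.26 ± 0.16 in the combined mutant (adjusted p = 9.25e-08) and 1.91 in the hdac mutant, and PIP2 by 1.27 and 1.16. OAF3, a repressor of oleate genes, rose by 0.42 and 0.53, and OAF1, the fatty acid-binding partner of Pip2, stood at −0.03 and −0.09 and did not pass. None of the 4 regulators was called in the bmh mutant, with limma adjusted p-values of 0.0996 to 0.972.

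Other genes that act on peroxisomes are given beside shares over all genes of 30.4% rising and 45.2% falling in the combined mutant, and 29.8% and 41.6% in the hdac mutant. ATG36, the receptor for selective degradation of peroxisomes, rose by 2.11 ± 0.15 in the combined mutant (adjusted p = 7.88e-08) and by 1.62 in the hdac mutant, and fell by 0.57 in the bmh mutant. Its partner ATG11 rose by 0.99 and 0.78 in the combined and hdac mutants. MYO2, the myosin motor that carries peroxisomes to the bud, fell by 0.27 in the hdac mutant and by 0.25 in the bmh mutant, and its difference of −0.15 in the combined mutant did not pass. Among 5 genes of organelle division, 2 rose and 1 fell in the combined mutant, and 3 rose and 0 fell in the hdac mutant by limma (DNM1 0.62, FIS1 0.94 and VPS1 0.24). The dynamin DNM1 rose by 0.66 and its membrane receptor FIS1 by 0.64 in the combined mutant, the adaptor CAF4 fell by 0.29, and VPS1 (0.11) and MDV1 (−0.12) did not pass. Of 6 genes for ER shaping and the seipin complex, which meets Pex30 at the ER, 3 rose and 1 fell in the combined mutant: the reticulon RTN2 rose by 3.64, YOP1 by 0.22 and SEY1 by 0.21, and the seipin gene SEI1 fell by 0.66. In the hdac mutant 4 of them rose and 2 fell: RTN2 (1.26), LDB16 (0.83), SEY1 (0.34) and YOP1 (0.19) rose, and SEI1 (−0.78) and RTN1 (−0.20) fell.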

How the data were processed

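RNA of 12 cultures was hybridised to Affymetrix Yeast Genome 2.0 arrays after labelling 250 ng with a 3′ in vitro transcription kit, per the labels' protocols. The authors deposited 1 value per probe set and array. These are log2 values by RMA with affy, per the submitters' processing notes and the range of the values (3.39 to 14.87). The sources used here give no versions. RMA equalises array distributions, so changes are relative to the bulk of genes. Array precision is limited by 3 arrays per strain, and p-values measure the spread between cultures.

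Probe sets were named from the platform annotation, with 12 symbols updated through the RefSeq gene table. Of 5715 probe sets, 5497 had 1 symbol, 0 had several and 218 had none. Of several probe sets for a gene the brightest on average was used, which left out 49. A means model of the 4 strains was fitted with limma 3.58.1 (R 4.3.3, 8 residual degrees of freedom), tested on simulated data, with Benjamini-Hochberg adjustment over 5448 genes. Changes from or to a mean at or below background are given as bounds. All 29 genes are named; described in full are the 6 largest called changes in each comparison with the wild type, the 3 largest interactions, the paralog pairs and members next to a mutated gene. For other lists the 4 regulators, the mutated genes and up to 4 called genes with the largest change in the combined mutant are named, and any others named were chosen after their values were seen. The members and lists were chosen with earlier results of these data known.

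Deviations from the strain mean correlated over genes between same-numbered combined and bmh arrays (r 0.100 to 0.135) and not in every pair of any other strains, so the replicate number was taken as pairing there, from the data alone. Differently numbered combined and wild-type arrays reached r 0.192, so these values do not establish a pairing. Alternatives covered scaling, filter, variance model, arrays in the fit, array weights, replicate block, probe sets, threshold and each array left out. The paired fit of the combined and bmh arrays alone was added after the data were seen. Counts without PEX6, the member next to a mutated gene, were also made and are not given here.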

Additional observations from a re-analysis of the deposited data

Results flagged for a closer look

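For 7 of the 29 genes the difference that went with the bmh mutations was unlike with and without the deacetylases, by the limma interaction test. That is 24.1%, against 23.7% of all genes. The value of the test is the combined change minus the sum of the bmh and hdac changes. The hdac strain also stood apart in mating-type transcripts, and the part of mating type was not tested. PEX34 had −0.96 (adjusted p = 9.61e-05), the bmh mutations going with −0.76 without the deacetylases and 0.19 with them. PEX21 had −0.57 (adjusted p = 7.71e-04), with 0.11 and 0.68 in the same order. PEX27 had 0.54 (adjusted p = 0.0145), with 0.65 and 0.11, and ANT1 had 0.46 (adjusted p = 0.0127), with −0.07 and −0.53. PEX15 had 0.30 (adjusted p = 0.0199), PEX28 had 0.30 (adjusted p = 0.0382) and PEX8 had 0.29 (adjusted p = 0.042). The PEX15 call ended on leaving out 1 array, and the PEX28 and PEX8 calls each on leaving out any 1 of 8 arrays. At an adjusted p under 0.01 none of the values above the sum passed.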

How the results depend on the processing

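No value of the 29 genes in the 6 comparisons reversed a called direction, over 3996 values compared. Leaving out each array in turn, the rises and falls ranged from 4 to 9 and 2 to 5 in the bmh mutant, 11 to 17 and 9 to 9 in the hdac mutant, and 14 to 17 and 9 to 9 in the combined mutant. They ranged from 12 to 15 and 9 to 9 for the combined against the bmh mutant, 4 to 8 and 1 to 5 for the combined against the hdac mutant, and 3 to 5 and 2 to 5 for the interaction. The medians ranged from −0.0386 to 0.0173, 0.173 to 0.229, 0.169 to 0.261, 0.147 to 0.208, 0.0190 to 0.0554 and −0.0515 to 0.0361 in the same order. Quantile normalization gave medians of 0.16 in the hdac mutant, 0.17 in the combined mutant and 0.13 for the combined against the bmh mutant. Array weights, which put wild-type array 1 at 0.0863, gave 5 falls and a median of 0.0463 in the bmh mutant, 10 rises and 5 falls for the combined against the hdac mutant, and 5 interactions below the sum. With only the 2 strains compared in the fit, the combined mutant had 5 falls against the hdac mutant. Interactions above the sum numbered 3 with median centring and 3 with the replicate block, where PEX28 was lost (adjusted p = 0.0506). At an adjusted p under 0.01 there were 0 interactions above the sum, against 5 at 0.05, and 1 fall in the combined against the hdac mutant. The share of interaction calls above the sum was 71.4%, and 50% with median centring and 62.5% with quantile normalization. For single genes, alternatives other than leaving out an array added 41 calls and ended 39, and leaving out an array added 32 and ended 72. The paired fit of the combined and bmh arrays alone added 3 calls and ended none, while the block over all 12 arrays added PEX17 and ended PEX2 and PEX10 in that comparison, as given with it. Signal over background limits PEX18 most, whose wild-type mean was 4.75 against a background of 4.13.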
